A study of Mus musculus with 3 samples.

Results

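The genes described here are 10 immediate early genes and close relatives: the AP-1 subunits Fos, Fosl1, Fosl2, Jun, Junb and Jund, the zinc finger factor Egr1, the nuclear protein gene Ier2, the transcription factor Myc and the growth factor Hbegf. They were chosen by gene symbol, and every probe set that the platform annotation pairs with one of these symbols was taken. That gave 13 probe sets of 10 genes, out of 22690 probe sets and 12393 named genes on the array. The series measured RNA in C2C12, a mouse myoblast line that divides in serum-containing medium and can fuse into muscle fibres. The groups were cells given a construct for DGK-zeta, the zeta form of diacylglycerol kinase, cells given EGFP (a green fluorescent protein) as transfection control, and untreated cells. Every sample carries the time label 12 h, cells had been cultured for 18 h before transfection with a lipid reagent, and each group had 1 array. Neither the promoter that drives the constructs nor the share of cells that took them up is stated in the labels.

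Immediate early genes are transcribed within minutes of a growth factor, serum or phorbol ester signal, without new protein synthesis. Jun proteins pair with each other or with Fos proteins into the AP-1 dimer, while Egr1 binds GC-rich promoter sites and Myc acts with its partner Max. Diacylglycerol activates protein kinase C and RasGRP proteins, which feed the ERK cascade that switches these genes on, and DGK enzymes remove diacylglycerol by phosphorylation. DGK-zeta against EGFP sets the kinase against another transfected protein, and EGFP against untreated cells covers the transfection and EGFP itself.

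The sequence just upstream of the start of transcription was in the RefSeq promoter table for 5 of the 10 genes (build GRCm38.p6). The 250 bases before the start are shown for Fos, Jun and Junb, since a value of Fos and of Junb stands on the other side of the detection floor in DGK-zeta cells than in both controls and since Jun can pair with Fos. Capitals mark matches to the motifs named after the sequences, and each is read 5′ to 3′ on the strand of the gene. Fos lies on the plus strand at chr12:85473640-85473889, Jun on the minus strand at chr4:95052223-95052472 and Junb on the minus strand at chr8:84978749-84978998.
Fos: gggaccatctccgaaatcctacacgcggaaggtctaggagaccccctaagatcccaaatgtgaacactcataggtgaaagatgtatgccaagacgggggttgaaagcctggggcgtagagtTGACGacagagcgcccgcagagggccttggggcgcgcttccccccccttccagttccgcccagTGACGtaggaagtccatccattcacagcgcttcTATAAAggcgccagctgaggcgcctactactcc
Jun: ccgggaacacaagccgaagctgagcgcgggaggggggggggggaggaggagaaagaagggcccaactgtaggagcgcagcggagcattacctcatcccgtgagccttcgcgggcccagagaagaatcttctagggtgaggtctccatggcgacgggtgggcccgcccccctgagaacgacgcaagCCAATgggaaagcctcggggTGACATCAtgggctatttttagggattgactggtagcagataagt
Junb: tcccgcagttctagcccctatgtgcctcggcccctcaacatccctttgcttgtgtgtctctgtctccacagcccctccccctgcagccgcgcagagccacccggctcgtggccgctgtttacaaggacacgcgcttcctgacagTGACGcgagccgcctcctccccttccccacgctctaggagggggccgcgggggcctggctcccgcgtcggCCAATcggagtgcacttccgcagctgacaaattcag

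The motifs were searched on both strands of the 250 bases, and each share below is that of the 32851 promoters in the table that hold a match. TGACG, the core of a cyclic AMP response element (17.8% of promoters), was found 66 and 129 bases before the start of Fos and 106 bases before that of Junb. TATAAA, the TATA box (12.4%), begins 33 bases before the start of Fos. In Jun, TGACATCA (2.93%), the variant AP-1 site known from this gene, begins 45 bases before the start. CCAAT (33.8%) begins 65 bases before the start in Jun and 36 bases in Junb. Fosl2 has 1 match to the EGR site GCGNGGGCG (4.70%), and Jund, the other gene with a table entry, has no match to any of these motifs. The full element TGACGTCA (1.55%), which contains TGACG, the AP-1 site TGANTCA (6.75%) and the CArG box of serum response factor (1.47%) have no match in these windows of the 5 genes. The arrays measured RNA and not binding, so these matches describe the sequence alone.

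Values are MAS5 signals on a linear scale, and signals of different probe sets are not compared with each other. A probe set counted as measured on an array at a signal of at least 107, the median of all values pooled, and lower values were set to that floor before a ratio was taken. With 1 array per group there is no test across cultures and no p-value, so sizes are described. As a yardstick, the 2 brightest probe sets of 2245 genes, both measured on all 3 arrays, gave the SD of the log2 ratio of a single probe set. It was 0.40 for DGK-zeta over EGFP, 0.50 for DGK-zeta over untreated and 0.27 for EGFP over untreated. It covers different probes on the same RNA, not the spread between cultures. A ratio past 1 SD is common: 31.0% of 6926 genes had one for DGK-zeta over EGFP. The share was 23.4% of 6866 genes for DGK-zeta over untreated and 30.6% of 6932 for EGFP over untreated. Dgkz itself had a signal of 13466 in DGK-zeta cells, 1053 in EGFP cells and 1500.1 in untreated cells by its brightest probe set. Of 9 myoblast markers 5 were measured on all 3 arrays (Myf5, Des, Cdh15, Chrna1 and Ncam1), while Myod1, Myog, Pax7 and Musk were under the floor on all 3. The summed signal of all 9 came to 3932 for DGK-zeta, 3795 for EGFP and 3558 for untreated cells, but single markers went both ways. In DGK-zeta cells Myf5 had 2036, beside 1227 with EGFP and 1058 in untreated cells. Lower there than in EGFP and untreated cells were Des (479, beside 932 and 795), Ncam1 (186, beside 459 and 428) and Cdh15 (124, beside 191 and 140). Chrna1 had 1031, beside 886 and 1072. Among 15 measurable markers of leukocytes, endothelium, epithelium and adipocytes, Cd14 and Pparg reached the floor, on all 3 arrays, and Ptprc, Pecam1, Epcam and Adipoq did not. The ratio of the 3′ to the 5′ control probe set of Actb came to 2.55 for DGK-zeta, 1.43 for EGFP and 1.27 for untreated cells, and for Gapdh to 0.931 for DGK-zeta, 0.902 for EGFP and 0.841 for untreated cells. The part of this difference between arrays in the results below was not tested.

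Of the 10 genes, 7 were measured on all 3 arrays by their brightest probe set (Fosl1, Jun, Jund, Egr1, Ier2, Myc and Hbegf). Junb was measured in EGFP and untreated cells but not in DGK-zeta cells, Fos in DGK-zeta cells alone, and Fosl2 on no array. Fos thus enters the comparisons through the array where it is high, and its ratio is a bound. The pattern over the set was mixed: in DGK-zeta cells Egr1 was higher than in both controls, Ier2, Junb and the brightest probe sets of Jun and Hbegf were lower, and Myc and the brighter probe set of Fosl1 lay close to both. The dimmer Fosl1 probe set was lower than in both controls.

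**Figure D1:**
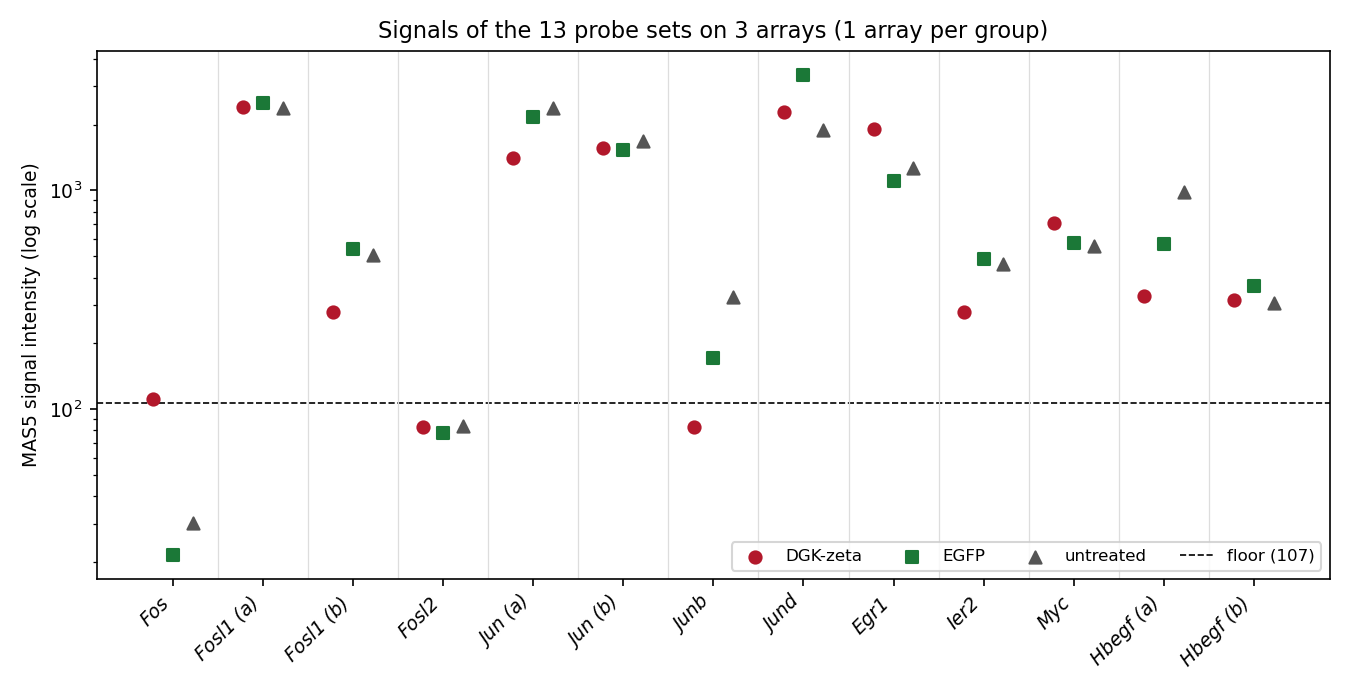
MAS5 signal (log axis) of each of the 13 probe sets in DGK-zeta (circles), EGFP (squares) and untreated cells (triangles), 1 array each, with the floor of 107 dashed; (a) and (b) are the brighter and the dimmer probe set of a gene. Junb is ordered untreated above EGFP above DGK-zeta, Egr1 has its highest signal in DGK-zeta cells, and the signals of the (b) probe sets of Jun and Hbegf lie close together.

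Among the Fos proteins, Fos itself, the prototype immediate early gene, had a signal of 112 in DGK-zeta cells, 21.6 in EGFP cells and 30.2 in untreated cells. Only the DGK-zeta value reached the floor, and by a small margin, so the ratio can be given as at least 1.04-fold higher against either control. Without a floor the log2 ratio would be 2.37 against EGFP and 1.89 against untreated cells, values that rest on control signals far under the floor. Fosl2, also called Fra-2, a Fos relative without the strong activation domain of Fos, had 83.3 in DGK-zeta cells, 77.6 with EGFP and 83.5 in untreated cells. All 3 signals are under the floor and their order has no meaning.

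Fosl1, also called Fra-1, a Fos relative that stays high in growing and migrating cells, gave different answers from its probe sets. The brighter one had signals of 2402 in DGK-zeta cells, 2511 with EGFP and 2373 in untreated cells. These 3 signals lie within 0.09 on the log2 scale of each other. The dimmer one had 277 in DGK-zeta cells, 538 with EGFP and 508 in untreated cells, which is 1.94-fold below EGFP and 1.83-fold below untreated. Between EGFP and untreated cells both probe sets agreed, at log2 ratios of 0.08 each. For DGK-zeta over EGFP their log2 ratios lay 0.89 apart, and 11.5% of the 2245 genes had a gap at least as large. The ratio of the brighter Fosl1 probe set to EGFP had the other sign, at 0.30 on the log2 scale, when the named probe sets of every array were given the same median.

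The Jun proteins, which can form AP-1 without a Fos partner, differed in their order over the arrays. For Jun, the most potent activator among them, the brighter probe set had signals of 1411 in DGK-zeta cells, 2159 with EGFP and 2394 in untreated cells. It was 1.53-fold below EGFP and 1.70-fold below untreated cells, past 1 SD in both comparisons. The other Jun probe set had 1566 in DGK-zeta cells, 1538 with EGFP and 1678 in untreated cells, all within 0.13 on the log2 scale, with a log2 ratio of 0.03 against EGFP. A gap between probe sets as large as that of Jun (0.64) occurred in 22.9% of genes.

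Junb, a weaker activator that can restrain Jun and proliferation, had its lowest signal in DGK-zeta cells. It had 83.1 in DGK-zeta cells, 171 in EGFP cells and 326 in untreated cells. The DGK-zeta signal is under the floor, so Junb was at least 1.59-fold below EGFP and at least 3.04-fold below untreated cells. The EGFP signal was 1.91-fold below untreated. Each step in this order is larger than 1 SD of a single probe set, but that SD comes from probe sets measured on all 3 arrays, unlike Junb. Junb also has a single probe set on this array, so no other probes of the gene bear on the order. In the ratio of DGK-zeta to untreated cells 0.612% of 6866 genes lay lower than Junb. In a bulk culture fewer cells with a transcript and less of it per cell cannot be told apart.

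Jund, the member that is usually expressed steadily in resting cells and is not a classical early gene, stood highest in EGFP cells. Its signals were 2277 in DGK-zeta cells, 3381 with EGFP and 1896 in untreated cells. DGK-zeta cells were 1.48-fold below EGFP and a log2 ratio of 0.26 above untreated cells, which lies within 1 SD. EGFP cells were 1.78-fold above untreated, a ratio exceeded by 0.822% of 6932 genes. For Jund, DGK-zeta cells thus lay past 1 SD below EGFP but were not distinguishable from untreated cells by this yardstick.

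Egr1, the zinc finger factor that ERK signalling induces through serum response elements, had the highest ratio among the measured genes of the set in both comparisons of DGK-zeta cells, apart from the bound of Fos. Its signals were 1900.5 in DGK-zeta cells, 1099.8 with EGFP and 1267 in untreated cells. The DGK-zeta signal was 1.73-fold above EGFP and a log2 ratio of 0.59 above untreated, both past 1 SD, and EGFP and untreated cells differed by a log2 ratio of -0.20, within 1 SD. Against EGFP 1.13% of 6926 genes had a higher ratio than Egr1, and against untreated cells 7.06% of 6866 genes did. Of 9 settings, only the scalings and the pseudocount changed the Egr1 log2 ratio. Under these it lay between 0.76 and 1.15 against EGFP, and between 0.56 and 0.85 against untreated. Egr1 has a single probe set with signals above every floor used, so the other settings could not change its ratio.

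Ier2, a small nuclear protein gene induced together with Fos and Egr1 by growth factors, stood on the other side of both controls than Egr1. It had 279 in DGK-zeta cells, 484 with EGFP and 461 in untreated cells. This is 1.74-fold below EGFP and 1.65-fold below untreated, past 1 SD in both, while EGFP and untreated cells were within 1 SD of each other. Of the 8 settings with an Ier2 ratio, only the scalings and the pseudocount changed it. Under these Ier2 kept its sign against both controls, with log2 ratios from -0.79 to -0.43 against EGFP. The other settings returned the reported ratio, since Ier2 has a single probe set with signals above their floors, and do not bear on its sign.

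Myc, the factor that drives ribosome production and growth, had signals of 709 in DGK-zeta cells, 575 with EGFP and 555 in untreated cells. The log2 ratios of 0.30 against EGFP and 0.35 against untreated cells are within 1 SD, and so is that of EGFP over untreated, 0.05. Its level was thus not distinguishable between the arrays by this yardstick.

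Hbegf, a membrane-bound ligand of the EGF receptor that is shed by ADAM proteases and is itself an early target of ERK signalling, again differed between probe sets. The brighter one had 331 in DGK-zeta cells, 568 with EGFP and 983 in untreated cells, the same order as Junb. That is a log2 ratio of -0.78 against EGFP and 2.97-fold below untreated, with EGFP 1.73-fold below untreated. The other probe set had 315 in DGK-zeta cells, 365 with EGFP and 308 in untreated cells, all within 1 SD of each other. Its log2 ratios were -0.22 for DGK-zeta over EGFP, 0.03 for DGK-zeta over untreated and 0.25 for EGFP over untreated. For DGK-zeta over untreated the gap between both probe sets was 1.60, reached by 3.83% of genes, and for EGFP over untreated it was 1.04, reached by 1.56%. The lower Hbegf value therefore stands on 1 of its 2 probe sets, in both comparisons with untreated cells.

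**Figure D2:**
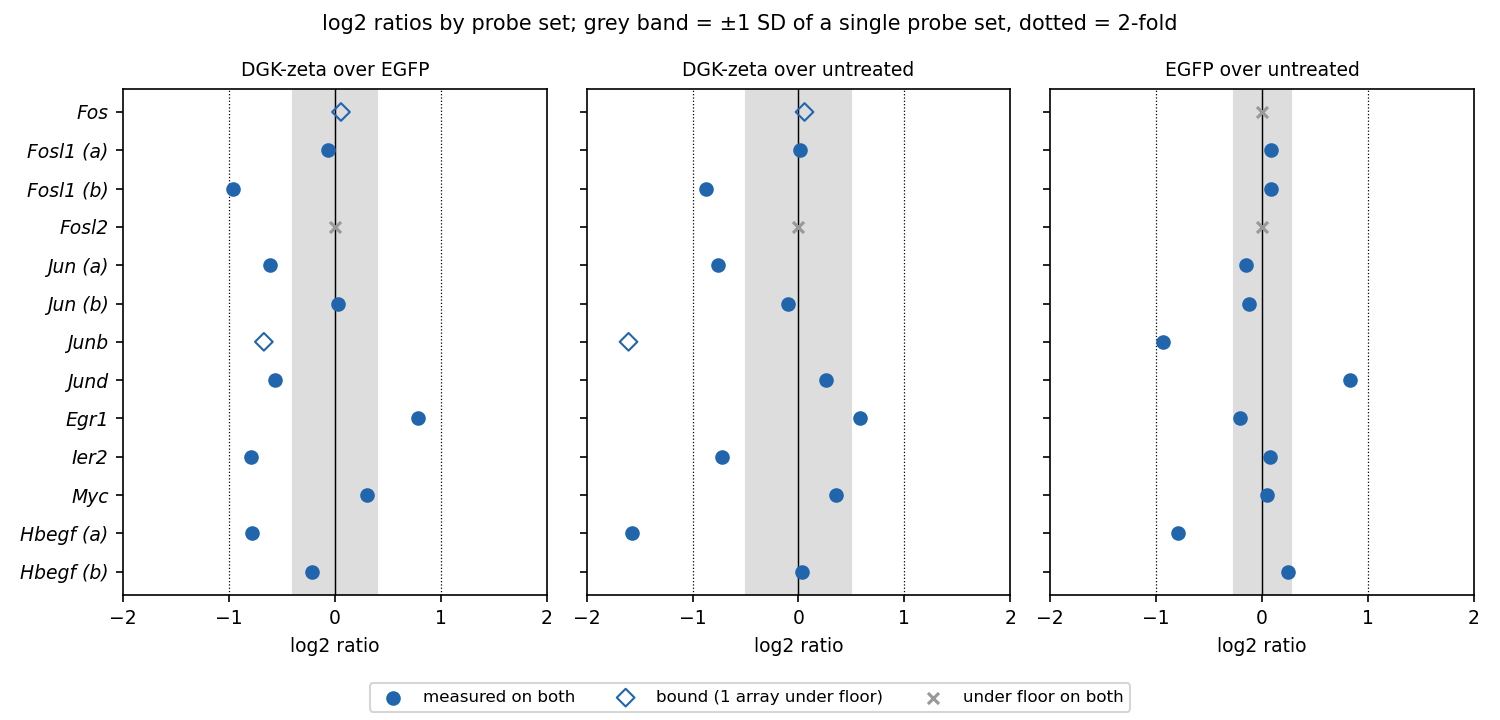
log2 ratio of each probe set (rows) in the 3 comparisons, with filled circles where both arrays reached the floor, open diamonds for bounds and crosses where neither did; the grey band is ±1 SD of a single probe set (0.40, 0.50 and 0.27). The paired probe sets of Fosl1, of Jun and of Hbegf differ from each other in the comparisons of DGK-zeta cells, and those of Hbegf also in EGFP over untreated.

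Set against the shares over all genes, the counts in the set depended on the fold rule and on the control. The counts take the brightest probe set of each gene. In both comparisons of DGK-zeta cells the dimmer probe sets of Jun and Hbegf lay within 1 SD, and that of Fosl1 lay past 1 SD below the control. With DGK-zeta, none of the 9 genes measured in it or in EGFP cells was at least 2-fold higher (all genes: 0.347%) or 2-fold or more lower (2.84%) than with EGFP. At 1.5-fold, Egr1 was higher (all genes: 3.51%) and 4 of 9 were lower, namely Jun, Junb, Ier2 and Hbegf (all genes: 11.6%). Against untreated cells none of 9 was at least 2-fold higher (1.34%) and 2 were at least 2-fold lower, Junb and Hbegf (2.8%). At 1.5-fold against untreated, Egr1 was higher (7.09%), and the genes lower were again Jun, Junb, Ier2 and Hbegf (9.93%). The DGK-zeta array enters both comparisons, and this repeat is not independent. The median log2 ratio of the measured genes of the set was -0.57 against EGFP, beside -0.02 over all 6926 genes, and 0.02 against untreated, beside -0.02 over all 6866 genes. Giving the named probe sets of every array the same median raised the median of all genes by 0.36 in the ratio to EGFP. It put the median of the set at -0.21, beside 0.33 over all genes. A floor at the 75th percentile, which left 6 of the genes, put the median of the set at -0.04, beside 0.04 over all genes.

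Between EGFP and untreated cells, which differ in the reagent, the construct and the EGFP protein together, 8 of the 10 genes were measured and none was at least 2-fold higher (all genes: 0.361%) or lower (0.303%). At 1.5-fold, Jund was higher (4.13%), and Junb and Hbegf were lower (1.51%). Junb, Jund and the brighter probe set of Hbegf each lay among the outermost genes. Of 6932 genes 0.404% were below Junb and 0.649% below Hbegf, while 0.822% were above Jund. The dimmer Hbegf probe set was on the other side of 0, at a log2 ratio of 0.25. The other 5 genes had log2 ratios between -0.20 and 0.08, within 1 SD. The median of the 8 was -0.05, beside 0.02 over all genes.

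**Figure D3:**
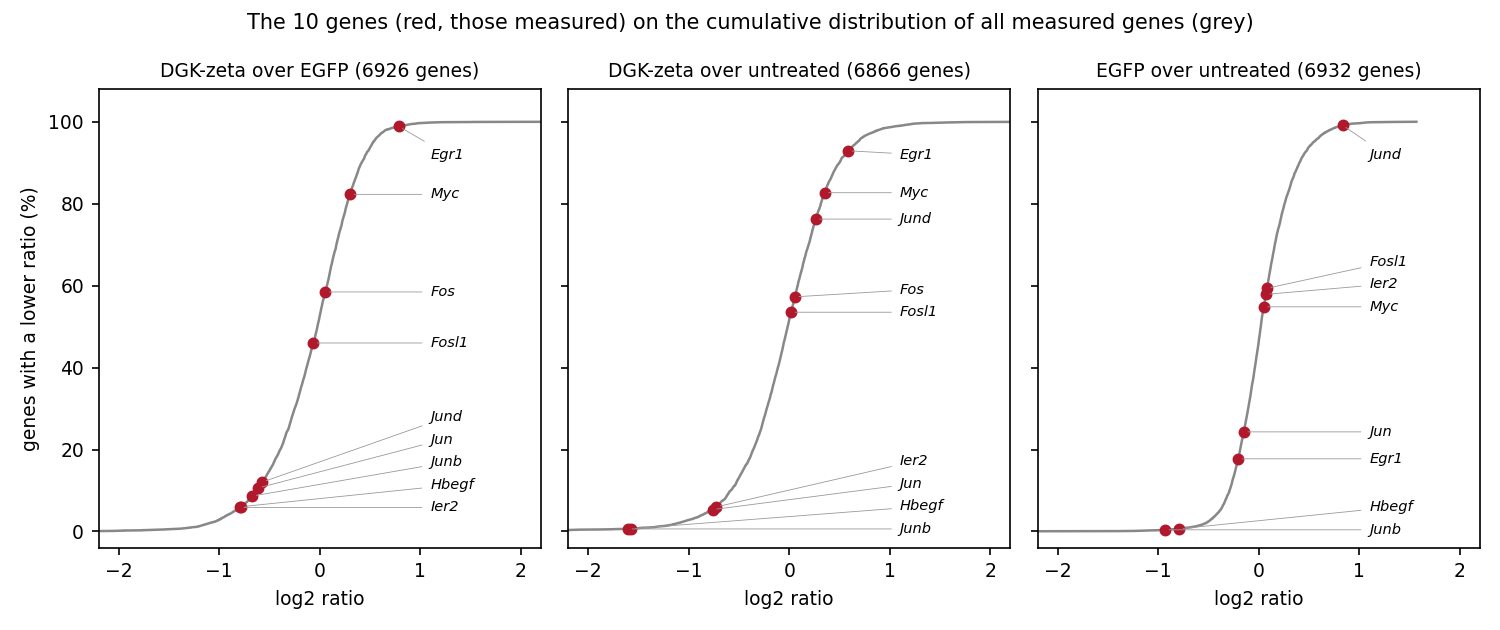
Cumulative distribution of the log2 ratios of all genes measured on at least 1 of both arrays (grey, x axis from -2.2 to 2.2) with the measured genes of the set in red; the y axis is the percent of genes with a lower ratio. Egr1 stands near the top and Ier2, Hbegf, Junb, Jun and Jund in the lower part against EGFP, whereas Jund stands near the top in EGFP over untreated; Fos and Junb are bounds where DGK-zeta is compared.

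Other genes of the same pathways came from lists by known function, and counts and medians over a list take the brightest probe set of each gene. Over all 6926 genes 0.347% were at least 2-fold higher with DGK-zeta than with EGFP, and 2.84% at least 2-fold lower. None of 28 measured further immediate early genes was 2-fold apart by that probe set in any of the 3 comparisons, and their median log2 ratio against EGFP was 0.01, with 14 above 0 and 14 below. The lowest was Pim1, a survival kinase, at -0.58, and the highest Tiparp, an ADP-ribosyltransferase, at 0.52. The other Tiparp probe sets were on the other side of 0, at -0.60 and -1.41 against EGFP, and the lower of them was at -2.24 against untreated cells. Thbs1, a secreted matrix protein, was at -0.93 against untreated cells by its brighter probe set and -1.18 by the other. Of the AP-1 partners and related factors, none of 8 was 2-fold apart by its brightest probe set against EGFP: Creb1 was at 0.61, Crem at 0.54, and Mafg, a small Maf protein, at -0.74, with its other probe set at -1.003. Atf3, a stress-induced factor, was measured in DGK-zeta cells alone, with 138 there, 78.8 in EGFP and 31.9 in untreated cells. Both control signals are under the floor, so its log2 ratio against either is a bound, at 0.37 or higher. Fosb, the other Fos protein, was under the floor on all 3 arrays, and so were Egr2, Egr3 and Egr4. Nab1 and Nab2, the corepressors that bind EGR proteins, were at -0.25 (within 1 SD) and -0.63 against EGFP. The other Nab1 probe set was at -0.55.

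Among the upstream regulators, Mrtfa, the actin-controlled coactivator of serum response factor, had 403 in DGK-zeta cells, 839 with EGFP and 712 in untreated cells. It was the 1 of 4 measured genes of its list at least 2-fold below EGFP (log2 ratio -1.06, all genes: 2.84%). Srf itself was at -0.12 by its brighter probe set and -1.21 by the other. None of 7 ERK feedback inhibitors (median 0.15), 8 measured genes of the RAS-ERK cascade (0.19) or 10 of the JNK and p38 cascade (-0.17) was 2-fold apart from EGFP by its brightest probe set. Against untreated cells the medians of these lists were -0.04, -0.03 and 0.10 in that order. Dimmer probe sets of the kinases Map2k3 and Map3k4 were at -1.27 and -1.03 against EGFP, beside -0.53 and -0.44 by the brightest. In the EGF family Erbb2 was at -0.99 and Ereg, a ligand related to Hbegf, at 0.51. In the MYC network Max had 50.1 in DGK-zeta cells, 167 with EGFP and 194 in untreated cells. Its log2 ratio against EGFP is a bound, at -0.64 or lower. Of 7 measured genes of this list 6 were below 0 against EGFP, beside a median of -0.02 over all 6926 genes. Against untreated cells 4 of 8 measured genes were above and 4 below 0 (median -0.21). Mycbp was at -0.46 against EGFP by its brightest probe set but at 0.43, 0.18 and -0.01 by others.

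Targets of these factors lay on both sides of 0. Of 19 MYC targets 9 were above and 10 below 0 against EGFP (median -0.01). Nop58, a nucleolar protein, was the 1 of these 19 at least 2-fold below EGFP (all genes: 2.84%). It had 476 in DGK-zeta cells, 1106 with EGFP and 2202 in untreated cells. Nme1, a nucleoside diphosphate kinase, was at 1.00 against untreated by its brighter probe set but -0.53 by the other. Of 8 measured AP-1 targets 6 were below 0 against EGFP (median -0.26), beside a median of -0.02 over all 6926 genes. Against untreated cells 4 of the 8 were above and 4 below 0 (median 0.04). Ccnd1 was above 0 against EGFP by its brightest probe set (0.35) and another (0.21), but at -2.28 by the dimmest. Cd44, the hyaluronan receptor, was at -0.82 and -0.85 by its probe sets against EGFP, and at -1.16 and -1.25 against untreated cells. The scaling that gives every array the same median raised the median ratio to EGFP over all genes by 0.36, more than most of these list medians differ from 0, so their signs, and those of ratios as small, rest on the scaling.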

How the data were processed

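Biotin-labelled RNA from 3 C2C12 samples went on 3 arrays, as the labels' protocols say. Per the submitters' processing notes the authors used MAS5, and what they deposited are linear intensities, 1 per probe set. No scaling target or detection call is stated in the labels. Trimmed means between the 2nd and 98th percentile were equal on all arrays (499.9 each), so no further scaling was applied. The median signals differed, at 92.5 for DGK-zeta, 119.2 for EGFP and 111.4 for untreated cells. At or above the floor were 10956 probe sets for DGK-zeta, 11632 for EGFP and 11447 for untreated cells. A dim probe set thus fell under the floor more often on the DGK-zeta array. Shortened labelled product can lower MAS5 signals of probe sets far from the 3′ end, and probe positions were not used. Of 22690 probe sets, 20380 have 1 symbol in the platform annotation, and 20351 of these were found by gene ID in a RefSeq table of GRCm38.p6, with 0 symbols differing. None of the 10 genes has a probe set with several symbols. A gene is given by its brightest probe set, floored at 107 before log2. With 1 array per group the precision is limited by that number and no test was run. Counts use 2-fold and 1.5-fold rules over genes measured on at least 1 of both arrays. Members and lists were chosen with earlier results of these data known. Of related lists, up to 4 genes with the largest ratios to EGFP and genes 2-fold apart could be named, and not all are printed. Exceptions, named after their values were seen, are Fosb, Egr2, Egr3 and Egr4. Alternatives were 3 scalings, other floors, a pseudocount of 3.17, other probe sets per gene and other folds. The counting was tested on simulated data. Tools were Python 3.11.15, pandas 2.3.3, matplotlib 3.10.9, scipy 1.17.1 and numpy 2.4.6.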

Additional observations from a re-analysis of the deposited data

How the results depend on the processing

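No paired analysis was possible because each group has 1 array. Of 26 gene ratios 8 had the other sign in at least 1 setting. Second-brightest probe sets gave 0.032 for Hbegf over untreated with DGK-zeta, 0.25 for Hbegf with EGFP over untreated and 0.03 for Jun with DGK-zeta over EGFP. Fosl1 had the other sign in 2 settings for DGK-zeta over EGFP and in 3 for DGK-zeta over untreated, and Fosl1, Ier2 and Myc for EGFP over untreated in 1 (-0.02, -0.03 and -0.05). The cause was not tested. For DGK-zeta over EGFP 1 gene was at least 2-fold higher when the named probe sets of every array had the same median, and 1 was higher and 1 lower with the 25th percentile as floor, with no floor and with the pseudocount, where values under the floor of 107 enter. The 1.5-fold rule gave 1 higher and 4 lower, and the 75th percentile a median of -0.040 over the 6 genes it left. For DGK-zeta over untreated 1 gene was higher with the 25th percentile, no floor and the pseudocount. The count of lower genes was 0 with the 75th percentile and with second-brightest probe sets (3 genes have one), and 1 with the mean over probe sets and with the 3-fold rule. The 1.5-fold rule gave 1 higher and 4 lower. For EGFP over untreated 1 gene was 2-fold lower with quantile normalization or with that common median, and the 1.5-fold rule gave 1 higher and 2 lower. Medians, reported as -0.57 for DGK-zeta over EGFP, 0.02 for DGK-zeta over untreated and -0.05 for EGFP over untreated, ranged from -0.57 to -0.04, from -0.43 to 0.27 and from -0.15 to 0.08 in that order. Neither median over untreated kept its sign in every setting.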
